A study of Rattus norvegicus with 24 samples.

Results

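MicroRNAs of peripheral blood mononuclear cells (PBMC) were compared between 1 h and 34 d of therapy in arthritic rats, pooled over the 4 therapy arms of the study, to ask which changes over time all arms shared. The comparison takes 16 of the 24 arrays of the series, selected by sample title: 8 arrays at 1 h and 8 at 34 d, that is 2 arrays per arm and time. All 16 came from female Wistar rats with collagen-induced arthritis (CIA), a model of rheumatoid arthritis raised by immunization with bovine type II collagen in adjuvant. In the MS arm (AP in the labels) a short needle was inserted under the skin and twirled. The MTX arm received methotrexate, an antifolate drug given in rheumatoid arthritis, by peritoneal injection. The PLA arm received saline by the same route. The ANE arm was anaesthetized with isoflurane in place of ether at blood sampling and had no other therapy. Healthy rats without CIA (NORA in the labels) gave 2 arrays at each time and serve as a reference. Per the study's methods the animals were sacrificed at each sampling, so the arrays of the 2 times hold blood of different animals. Time under therapy, time with arthritis and age of the animal therefore cannot be told apart. The labels do not say whether an array held RNA of 1 animal or of several, and p-values measure the spread between these samples only.

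A microRNA (miRNA) is a short RNA that lowers the translation or stability of messenger RNAs, and it finds its targets mainly through the seed, bases 2 to 8 counted from its 5′ end. miRNAs that share a seed form a family and can share targets. In blood, miR-142 is present in all white cell lineages, miR-150 and miR-342 are abundant in lymphocytes, miR-223 in granulocytes and monocytes, and miR-451 with miR-144 in red cells and their precursors. Mononuclear cells separated on a density gradient hold mainly lymphocytes and monocytes, and may carry over platelets, red cells and granulocytes.

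Each array measured 677 rat miRNAs, of which 151 to 207 were detected on the 16 arrays. The 2 miR-142 strands, miR-150 and miR-223 were detected on all 16. Of the muscle miRNAs miR-1, miR-133a, miR-133b and miR-206 none was detected on 3 or more of the 24 arrays. Brightness, the intensity summed over detected miRNAs, ran from 142260 (MTX at 1 h, replicate 2) to 519917 (MS at 34 d, replicate 1). The arrays lay on 3 slides of 8, and slide is tied to time in every arm. MS, MTX and PLA were on slide 3 at 1 h and on slide 1 at 34 d, ANE was on slide 1 at 1 h and on slide 2 at 34 d, and the healthy animals were on slide 3 at 1 h and on slide 2 at 34 d. Within each arm, time and slide cannot be told apart. Levels are given as log2 of the scaled intensity. A miRNA that the scanner software did not detect was set at a floor of 2.53, so a value of 2.53 stands for no detected signal or for a signal at or under that floor.

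The mature sequences of the miRNAs on which the results turn are shown 5′ to 3′ with the seed in capitals, so that family members can be seen. They are RefSeq entries on GRCr8, and array names without a strand ending were read as the strand that carried the plain name in older miRBase releases. Of 16 names looked up 14 had an entry, and miR-30b-5p and miR-30d are named only. The first set holds the family of miR-34 and miR-449a, in which the largest change shared by all arms was found, and its 4 tested members share the seed GGCAGUG.
miR-34a-5p: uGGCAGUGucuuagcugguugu
miR-34b-5p: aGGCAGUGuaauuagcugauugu
miR-34c-5p: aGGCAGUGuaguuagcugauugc
miR-449a-5p: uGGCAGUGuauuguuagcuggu
miR-34b-5p (chr8:60306657-60306679) and miR-34c-5p (chr8:60306133-60306155) lie on the minus strand with 501 bases between them, and 21 of their 23 bases are identical. The second set holds the other miRNAs that had one direction of change in all 4 arms, with miR-30a for comparison: the 3 miR-30 sequences share the seed GUAAACA and the others each have a seed of their own.
miR-30a-5p: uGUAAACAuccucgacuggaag
miR-30c-5p: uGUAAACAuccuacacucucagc
miR-30e-5p: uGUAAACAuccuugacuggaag
miR-106b-5p: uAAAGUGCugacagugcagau
miR-27b-3p: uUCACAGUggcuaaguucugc
miR-494-3p: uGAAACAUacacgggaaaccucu
miR-3593-3p: cUUCAACCuuaagggggccuca
The third set holds the 3 miRNAs whose change over time differed between arms, none of which shares its seed with another sequence shown.
let-7b-3p (let-7b* on the array): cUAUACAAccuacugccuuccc
miR-3544: aACUCCUGcaugacgccguuccc
miR-223-3p: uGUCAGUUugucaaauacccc

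No miRNA passed the test of the pooled change. With arm as a block, limma called 0 of the 210 tested miRNAs (0%) at an adjusted p under 0.05, against 12 (5.71%) at an unadjusted p under 0.05. Of these 12, 11 were lower at 34 d (5.24% of those tested) and 1 was higher (0.476%). The 8 arrays at 34 d and the 8 at 1 h overlapped for every tested miRNA, and no miRNA was separated by time within each of the 4 arms in one direction. The median pooled change was 0.03 on the log2 scale over the 210 miRNAs and 0.06 over the 138 detected on all 16 arrays, where 103 lay above 0 and 35 below.

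The intervals give the size of change that the 16 arrays leave possible. For 158 of the 210 miRNAs the 95% interval of the pooled change lay inside a 2-fold change in either direction. That was so for 123 of the 138 miRNAs detected on all 16 arrays, with a median standard error (SE) of 0.17, and for 35 of the other 72, with a median SE of 0.33. Among the best measured were miR-142-3p, at 13.52 ± 0.14 (SD, n = 8) at 1 h and 13.55 ± 0.19 (SD, n = 8) at 34 d, with an interval from -0.15 to 0.22, and let-7f, with an interval from -0.13 to 0.28. The interval was wide for miR-150, from -1.05 to 1.19, and for miR-451, from -0.50 to 1.58, so for these a pooled change of 2-fold lies within it.

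**Figure D1:**
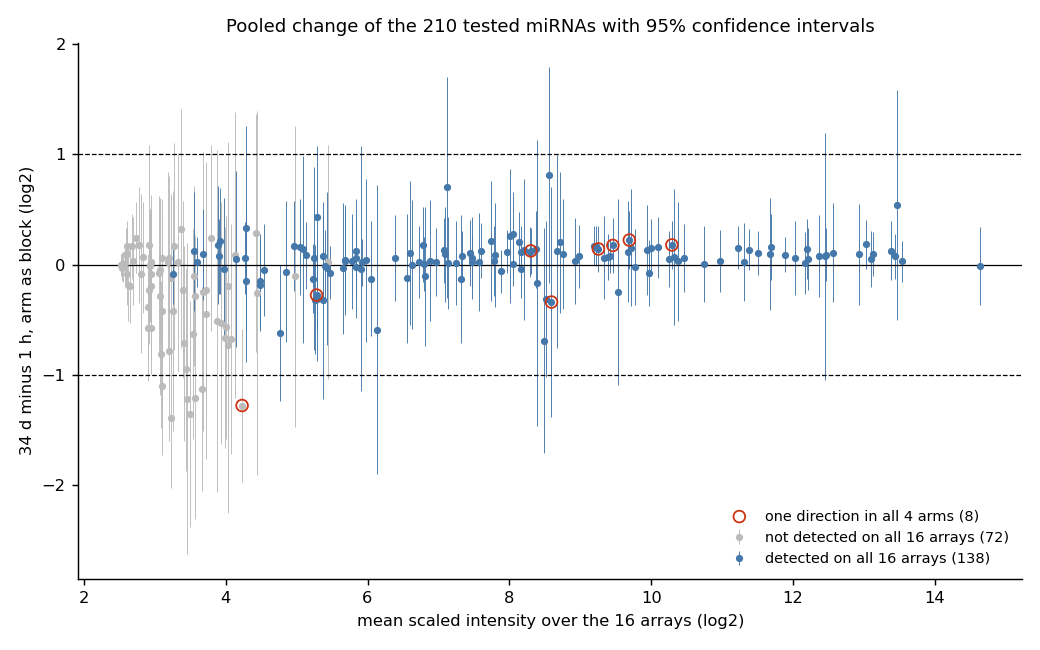
Pooled change between 1 h and 34 d (y axis, log2 difference with arm as a block) against the mean level over the 16 arrays (x axis, log2 scaled intensity) for the 210 tested miRNAs. Bars are 95% confidence intervals, dashed lines mark a 2-fold change, and red rings mark the 8 miRNAs with one direction in all 4 arms. Most changes of abundant miRNAs sit near 0, and the changes beyond 1 on the log2 scale belong to miRNAs that were not detected on all 16 arrays.

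The sign of the change was the same in all 4 arms for 8 of the 210 miRNAs (3.81%), and for 7 of the 138 detected on all 16 arrays (5.07%). None of the 8 passed the pooled test, so they are given as values, chosen after their values were seen. 5 were higher at 34 d in each arm (miR-30b-5p, miR-30c, miR-30e, miR-27b and miR-106b) and 3 were lower (miR-34b, miR-494 and miR-3593-3p). The higher ones all differed by little, between 0.12 and 0.22 pooled.

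miR-30c, miR-30e and miR-30b-5p are guide strands of the miR-30 family, a widely expressed family. miR-30c ran from 8.86 through a median of 9.69 to 9.86 at 1 h and from 9.59 through 9.82 to 9.98 at 34 d. The ranges overlapped, and the lowest array at 1 h was MS replicate 1, with the next at 9.45. The pooled change of miR-30c was 0.22 (SE 0.12, limma adjusted p = 0.957), and its arm changes were 0.37 in MS, 0.01 in MTX, 0.19 in ANE and 0.32 in PLA. miR-30e had a pooled change of 0.17 (SE 0.11) with arm changes from 0.06 to 0.26, and miR-30b-5p of 0.14 (SE 0.09) with arm changes from 0.03 to 0.31. The other 2 family members were also higher pooled, miR-30a by 0.21 (SE 0.12) and miR-30d by 0.12 (SE 0.11), but miR-30a was lower in PLA (-0.12) and miR-30d was lower in ANE (-0.23). All 5 intervals lay inside a 2-fold change.

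miR-106b, encoded in an intron of the replication gene Mcm7 together with miR-93 and miR-25, ran from 9.94 through 10.21 to 10.51 at 1 h and from 10.09 through 10.38 to 10.65 at 34 d. Its pooled change was 0.18 (SE 0.10, limma adjusted p = 0.957), from 0.03 in MTX to 0.38 in ANE. The other 2 members of the cluster had pooled changes of the same size, 0.17 (SE 0.08) for miR-93 and 0.15 (SE 0.12) for miR-25, and neither had one direction in all arms. miR-27b, a miRNA of the miR-23b/27b/24 cluster, had a pooled change of 0.12 (SE 0.10), and its arm changes ran from 0.01 in MTX to 0.36 in MS. With quantile normalization its pooled change was -0.0035. At 1 h MS replicate 1 was at 7.68 and the other 7 arrays lay between 8.20 and 8.43.

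Of the 3 miRNAs lower in every arm, miR-494, a member of the large miRNA cluster of the imprinted Dlk1-Dio3 region, varied most between arrays. At 1 h its arrays ran from 6.72 through 9.18 to 9.85 and at 34 d from 6.69 through 8.77 to 9.55, so both times covered the same range. The lowest array at either time was replicate 1 of MS. The pooled change of -0.34 had an SE of 0.47. miR-3593-3p ran from 4.75 through 5.49 to 5.73 at 1 h and from 4.62 through 5.10 to 5.64 at 34 d, a pooled change of -0.28 (SE 0.15, limma adjusted p = 0.957). With the 75th percentile taken over all 677 miRNAs its change turned to 0.044, on a scale on which the median change of all miRNAs was 0.33.

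**Figure D2:**
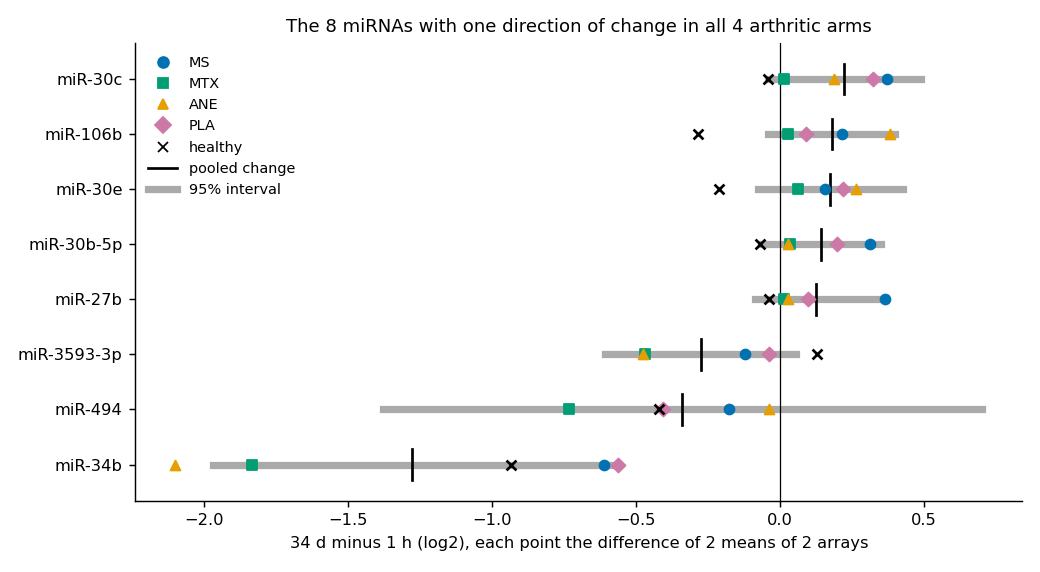
Change from 1 h to 34 d (x axis, log2) in each arthritic arm and in the healthy animals for the 8 miRNAs with one direction in all 4 arms. Each coloured symbol is the difference of 2 means of 2 arrays, black ticks are the pooled changes and grey bars their 95% intervals. Only the interval of miR-34b lies apart from 0, from -1.97 to -0.58. For 6 of the 8 the healthy animals (crosses) lie on the other side of 0 from the arms. Over the 138 miRNAs detected on every array of the 4 arms, the healthy sign matched ANE for 20 and PLA for 34. It matched MS for 100 and MTX for 99.

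The largest change with one direction in all arms was that of miR-34b, a miRNA induced by p53. In MS it was at 4.28 and 4.13 at 1 h and at 3.84 and 3.35 at 34 d. In MTX it was at 5.26 and 5.75 at 1 h and at 3.15 and 4.20 at 34 d. In ANE it was at 6.29 and 5.37 at 1 h and at 3.60 and 3.86 at 34 d. These 3 arms were separated by time, with both arrays at 1 h above both at 34 d. In PLA the times overlapped: 4.26 and 3.60 at 1 h, and the floor and 4.21 at 34 d. The pooled change was -1.28 (SE 0.32, n = 8 per time), which is 2.42-fold higher at 1 h, with an unadjusted p of 0.00151 and a limma adjusted p of 0.153. It did not pass the threshold. The healthy animals had a change of -0.94, from 4.72 and 4.12 at 1 h to 3.48 at 34 d on both arrays.

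The 34 d means of miR-34b were lower in MS, MTX and PLA, which went from slide 3 to slide 1, with overlapping times in PLA. They were also lower in ANE, which went from slide 1 to slide 2. Whether slide has a part in these differences was not tested. On slide 1 alone, which holds ANE at 1 h and the other 3 arms at 34 d, the difference between 34 d and 1 h was -2.28, and there arm and time cannot be told apart. In a fit of group means, which lets each arm have its own change, the pooled change had a limma adjusted p of 0.0396 on 24 arrays and 0.0444 on the 16. Without PLA replicate 2 at 34 d it had an adjusted p of 0.0240. In the authors' log2 table the change was -0.57 (SE 0.20, limma adjusted p = 0.952), and with a background correction by normexp it was -0.24 (SE 0.17, adjusted p = 0.995).

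The family was not lower as a whole. miR-34c, encoded beside miR-34b, was detected on 7 of 8 arrays at 1 h and on 5 of 8 at 34 d. Its arrays ran from the floor through 4.10 to 5.91 at 1 h and from the floor through 2.83 to 4.0 at 34 d. Its pooled change was -1.12 (SE 0.42, limma adjusted p = 0.576), with -0.57 in MS, -1.70 in MTX, -2.30 in ANE and 0.07 in PLA. miR-449a, detected on 5 of 8 arrays at 1 h and on 3 of 8 at 34 d, had a pooled change of -0.42 (SE 0.39). miR-34a, with the same seed and encoded on another chromosome, was detected on every array, ran from 7.62 to 8.29 at 1 h and from 7.88 to 8.15 at 34 d, and had a change of 0.12 (SE 0.09). Its interval, from -0.08 to 0.31, lay apart from that of miR-34b; the difference between the 2 miRNAs was not tested.

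**Figure D3:**
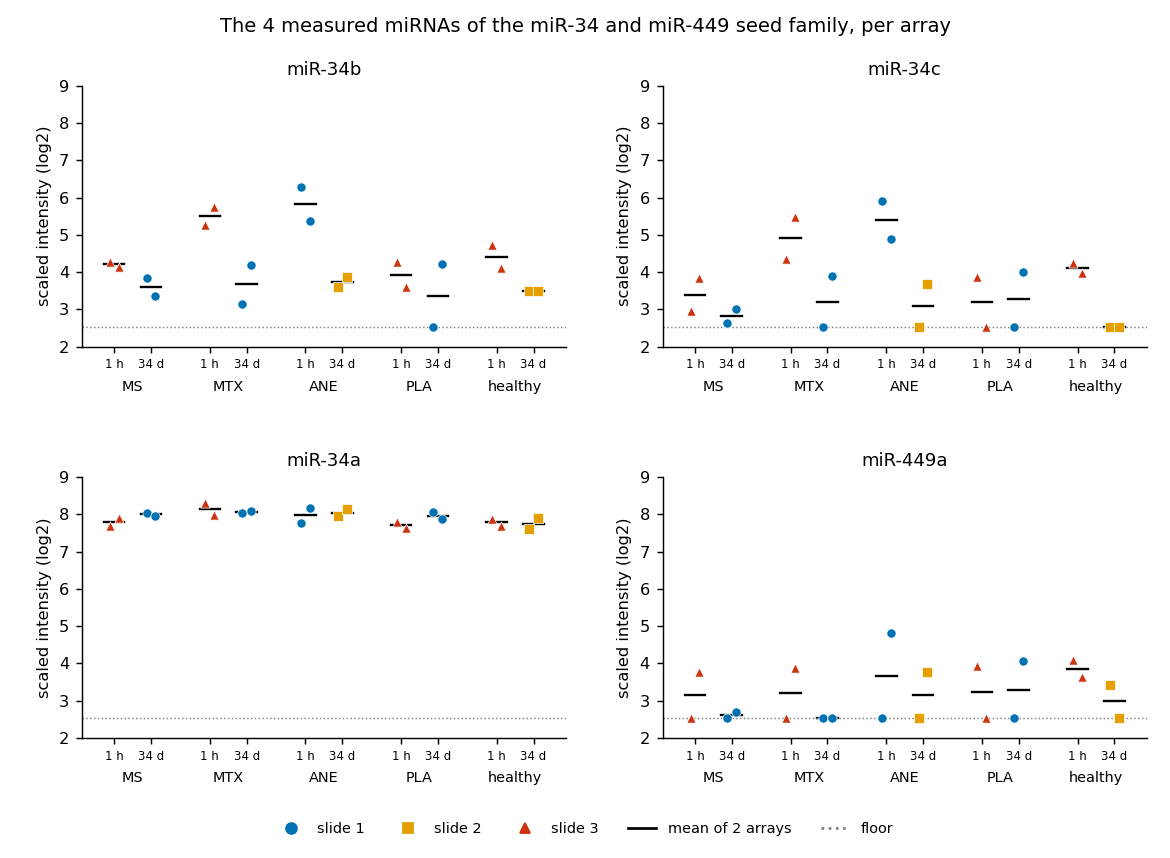
Scaled intensity (y axis, log2) of the 4 tested miRNAs with the seed GGCAGUG, by arm and time, with 1 symbol per array, its shape and colour giving the slide, and bars for the mean of 2 arrays. The dotted line is the floor of 2.53. miR-34b and miR-34c are lower at 34 d in MS, MTX and ANE, miR-34a stays between 7.62 and 8.29 on all 16 arthritic arrays, and many miR-449a arrays are at the floor.

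The changes at an unadjusted p under 0.05 were mostly of miRNAs near the floor. Of the 12, 10 were not detected on all 16 arrays, and the 12 are named after their values were seen. miR-3544 was detected on 6 of 8 arrays at 1 h and on 0 of 8 at 34 d, and had the smallest p of the pooled test (change -1.39 against the floor, SE 0.29, limma adjusted p = 0.0793). By arm it was at 3.20 and 3.74 in MS, 4.75 and 4.96 in MTX, and 4.86 and 4.78 in PLA at 1 h, and it was not detected in ANE at either time. Against a bound for the 34 d arrays that is never under the floor, this is at least 1.92-fold higher at 1 h in MS, at least 5.02-fold in MTX and at least 3.85-fold in PLA. In MS and MTX the bound was the floor itself.

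Detection differed between slides, and the miRNAs differed in this. miR-3544 was detected on all 8 arrays of slide 3, healthy animals included, on 0 of 8 of slide 1 and on 1 of 8 of slide 2. miR-298 was detected on 8, 2 and 5 arrays of slides 3, 1 and 2, miR-3549 on 8, 2 and 3, miR-582* on 8, 3 and 6, and miR-203 on 6, 2 and 2. Slides 3 and 1 were closer for miR-483* (7, 5 and 1), miR-328a* (6, 3 and 0), miR-370 (4, 3 and 0), miR-34c (7, 6 and 3) and miR-34b (8, 7 and 7). For all of these but miR-34b the fewest detections were on slide 2, which holds ANE at 34 d. ANE, the arm with no array on slide 3, was not lower at 34 d for 5 of the 10: its differences were 0.00 for miR-3544 and miR-203, 0.12 for miR-298, 0.81 for miR-3549 and 1.06 for miR-582*. It was lower for the other 5, with -0.45 for miR-483*, -0.47 for miR-328a*, -0.98 for miR-370, -2.10 for miR-34b and -2.30 for miR-34c. In the healthy animals, on slide 3 at 1 h, miR-3544 was at 4.77 on both arrays at 1 h and was not detected at 34 d, at least 4.70-fold lower. miR-298 was at 4.92 and 4.24 there at 1 h and at the floor and 2.6 at 34 d. Slide and time cannot be told apart in any of the arms, ANE included, nor in the healthy animals. ANE went from slide 1 at 1 h to slide 2 at 34 d.

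Without the ANE arm 6 of the 210 miRNAs were called, and all 6 had one direction in the 3 other arms. They were miR-3544, miR-298, miR-3549, miR-582*, let-7b* and miR-1*. In those 3 arms every 1 h array is on slide 3 and every 34 d array on slide 1. For miR-3544, miR-298, miR-3549, miR-582* and let-7b* both PLA arrays at 34 d were at the floor. Values tied at the floor understate the spread, which can make these p-values too small. The remaining miRNAs at an unadjusted p under 0.05 were miR-328a* (detected on 6 arrays at 1 h and 2 at 34 d), miR-370 (5 and 2), miR-203 (5 and 2), miR-483* (7 and 4), and miR-34b and miR-34c.

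Only miR-3085 and miR-140 among the 12 were detected on all 16 arrays. miR-3085 ran from 3.93 through 5.25 to 5.78 at 1 h and from 3.47 through 4.33 to 5.44 at 34 d. Its pooled change was -0.62 (SE 0.28, limma adjusted p = 0.853), with -0.78 in MS, -0.91 in MTX, -1.26 in PLA and 0.49 in ANE. miR-140, a miRNA known for its role in cartilage, was the only one of the 12 that was higher at 34 d. It ran from 8.81 through 9.13 to 9.32 at 1 h and from 9.14 through 9.28 to 9.44 at 34 d, with a change of 0.17 (SE 0.08, limma adjusted p = 0.853), and was lower in MTX (-0.09).

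**Figure D4:**
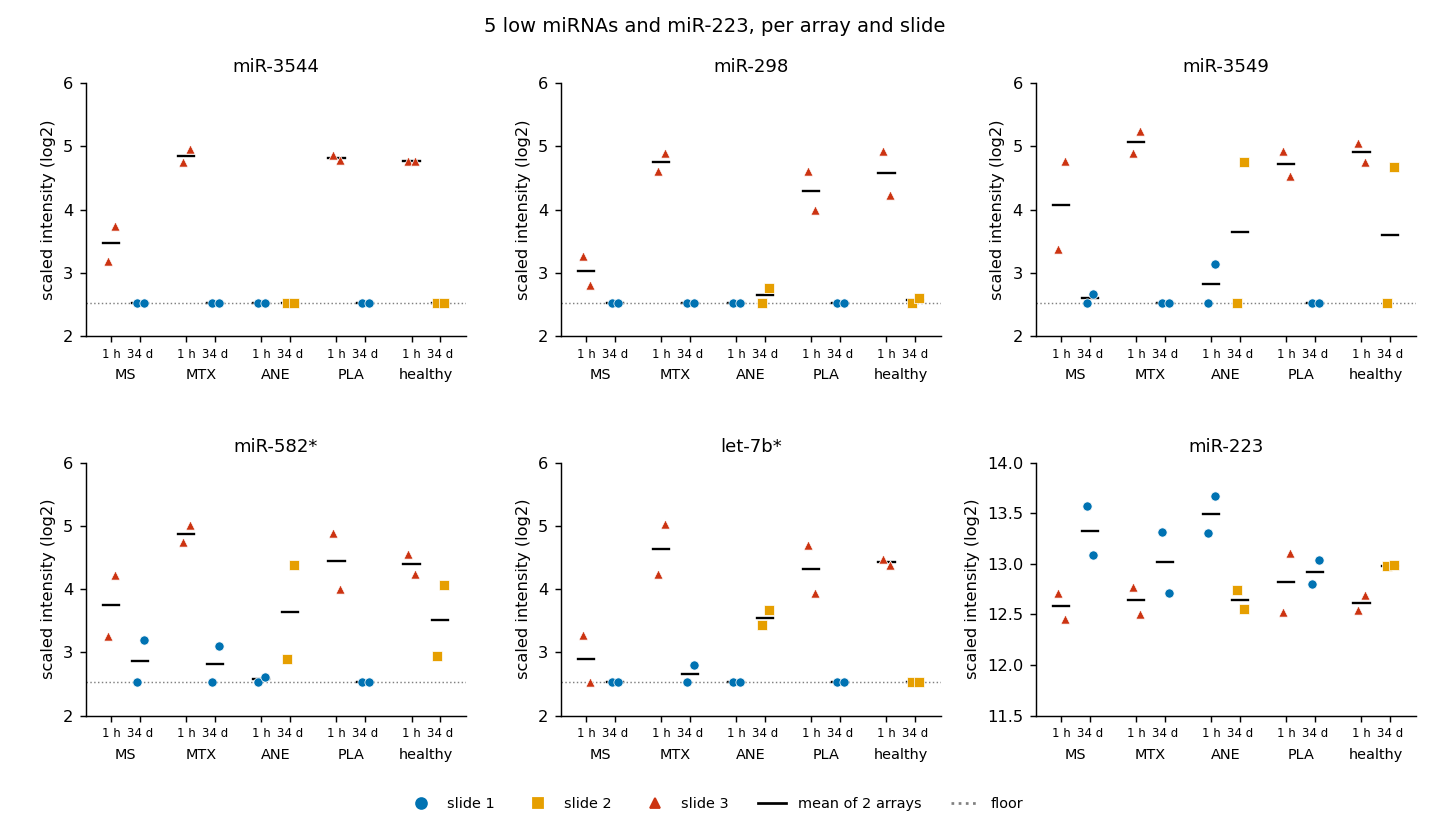
Scaled intensity (y axis, log2) of 5 miRNAs near the floor and of miR-223, by arm and time, with 1 symbol per array, its shape and colour giving the slide, and bars for the mean of 2 arrays. The dotted line is the floor of 2.53. Every plotted array of miR-3544 above the floor is on slide 3, and the y axis of the miR-223 panel does not start at the floor.

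Lists of blood cell and cluster miRNAs were read by counts and medians beside the 210 tested, of which 125 (59.5%) lay above 0. Of the 138 miRNAs detected on all 16 arrays 103 lay above 0, with a median of 0.06. Lists whose members were all detected on every array are to be read beside this share. None of the members was called. In bulk blood RNA, fewer cells of a type and less RNA per cell cannot be told apart. All 6 lymphocyte miRNAs (miR-150, miR-342-3p and miR-181a to d) were tested and all lay above 0, with a median of 0.07 and a range from 0.02 to 0.12. The arms differed in sign beneath this median: miR-150 had a change of -0.78 in MS, -0.55 in MTX, 0.77 in ANE and 0.86 in PLA. It was at 10.26 and 13.29 in MS at 1 h, so that the 2 arrays of this group lay farther apart than any of its arm changes.

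The 4 tested myeloid miRNAs (miR-223, miR-23a, miR-27a and miR-24) had a median of 0.09 and a range from 0.02 to 0.16, with a median of 0.59 in MS and -0.41 in ANE. The 2 miR-142 strands had a median of 0.08. miR-126, the only one tested of the 4 platelet miRNAs, had a change of 0.00 (SE 0.27). The 4 tested inflammation miRNAs, among them the NF-kB feedback miRNA miR-146a and the abundant miR-21, had a median of 0.13. miR-146a was the highest at 0.20 (SE 0.29) and miR-21 the lowest at -0.01 (SE 0.16), and the arms of miR-146a differed in sign, with -0.23 in MS, -0.29 in MTX, 0.59 in ANE and 0.73 in PLA.

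The 3 red cell miRNAs had the highest pooled changes among the miRNAs detected on all 16 arrays, 0.81 (SE 0.44) for miR-144, 0.70 (SE 0.45) for miR-144* and 0.54 (SE 0.47) for miR-451, and none passed the test. The arm changes were highest in ANE, with 2.08, 2.35 and 2.18, and next in MTX, with 1.29, 0.58 and 0.40. miR-451 in ANE was at 11.15 and 13.90 at 1 h and at 14.42 and 14.98 at 34 d, so the lower 1 h array gave much of the difference. In MS, MTX and PLA its changes were -0.44, 0.40 and 0.03, and in the healthy animals -1.19. Detection calls for the liver miRNA miR-122 numbered 4 of 8 at 1 h and 2 of 8 at 34 d. It was at 8.96 and 5.43 in ANE at 1 h against 3.92 or less on each of the 34 d arrays of the 4 arms. Its pooled change was -1.22 (SE 0.64, limma adjusted p = 0.957).

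Among the clusters and families, all 8 let-7 guide strands (median 0.08, from 0.02 for let-7e to 0.15 for let-7b), all 6 miRNAs of the Mir17hg cluster (median 0.05, from 0.00 for miR-17-5p to 0.15 for miR-19a), all 5 of the miR-15/16 seed (median 0.13) and all 3 miR-29 strands (median 0.11) lay above 0, and all these intervals lay inside a 2-fold change. The members of these lists were all detected on all 16 arrays, where 103 of 138 miRNAs lay above 0, so most miRNAs measured as well had the same sign. The 5 tested members of the miR-99, miR-100 and miR-125 families lay below 0, with a median of -0.08, from -0.31 for miR-125a-5p to -0.02 for miR-125a-3p. The 42 tested passenger strands, the star forms, had a median of -0.05, with 16 above 0 and 25 below, and 11 of them were detected on all 16 arrays. The direction of the small medians depended on the scaling. The lymphocyte list had a median of -0.01 with quantile normalization, and the median of all 210 miRNAs was 0.11 without scaling and -0.03 with scaling to the median.

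The changes of the 4 arms did not run together. Over the 138 miRNAs detected on all 16 arrays the median change was 0.39 in MS, 0.03 in MTX, -0.08 in ANE and -0.09 in PLA. Computed across miRNAs, whose levels depend on each other, Pearson's r between arm changes was 0.73 for MS and MTX and 0.36 for ANE and PLA. It was negative for each pair across these: -0.55 for MS and ANE, -0.51 for MS and PLA, -0.27 for MTX and ANE and -0.46 for MTX and PLA. MS and ANE had the same sign for 36 of the 138 (26.1%) and MTX and PLA for 31 (22.5%), against 95 (68.8%) for MS and MTX. The healthy change ran with MS (r = 0.75) and MTX (0.57) and against ANE (-0.70) and PLA (-0.43). MS, MTX and PLA share both slides, and PLA ran against the other 2. Whether slide has a part in this pattern was not tested.

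Among single miRNAs the same contrast can be read in miR-488, at 1.73 in MS, 0.89 in MTX and -0.80 in ANE, and in miR-497, at 1.03 in MS and 0.46 in MTX against -0.29 in ANE and -1.05 in PLA. miR-3588 lay at -1.84 in MS and -1.56 in MTX, and miR-3558-3p at -2.25 and -1.33. These were chosen after their values were seen, as examples of this contrast. Other miRNAs did not follow it: miR-144, with the highest change in MTX (1.29), was also higher at 34 d in ANE (2.08).

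**Figure D5:**
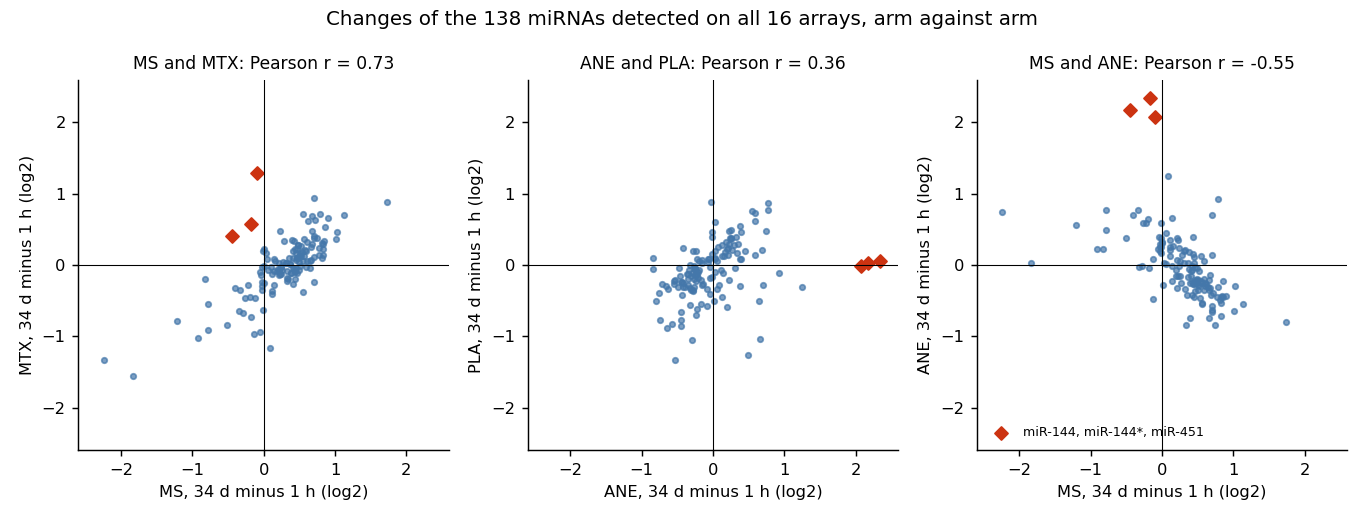
Change from 1 h to 34 d (log2, both axes) in one arm against another for the 138 miRNAs detected on all 16 arrays, 1 point per miRNA, with the red cell miRNAs miR-144, miR-144* and miR-451 in red. MS and MTX run together (r = 0.73), ANE and PLA less closely (r = 0.36), and MS against ANE runs in opposite directions (r = -0.55), with the red cell miRNAs apart in ANE.

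Mean brightness was higher at 34 d in MS and MTX and lower in ANE and PLA. The mean summed intensity went from 278805 at 1 h to 412544 at 34 d in MS and from 170142 to 248838 in MTX, and in the other direction in ANE, from 237261 to 209431, and in PLA, from 215774 to 186606. In the healthy animals it went from 170482 to 216557. Pooled over the arms, log2 of the summed intensity was 0.19 higher at 34 d, a difference with p = 0.394 in an exact two-sided permutation test of the time labels within arms (1296 arrangements, smallest possible p 0.00154). The first principal component of the 138 miRNAs held 64.2% of the variance of the scaled values. It followed log2 summed intensity over the 16 arrays with Pearson's r = 0.91 (permutation p = 6e-05) and Spearman's rho = 0.88 (permutation p = 2e-05, the smallest that 100000 resamples give). Without the 2 arrays farthest from the median intensity r was 0.76 over 14 arrays. Within slide 1 it was 0.88 over 8 arrays and within slide 3 it was 0.95 over 6, and slide 2 held only 2. This was the only such relation computed. The component and the brightness come from the same array intensities, and whether brightness has a part in the pattern of the arms was not tested. With log2 summed intensity as a covariate, an alternative chosen after seeing the data, the pooled test again called 0 of 210, against 18 at an unadjusted p under 0.05.

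Whether the change over time differed between arms was tested with the 12 group means of all 24 arrays. The F test over the 4 arms called 2 of 210 miRNAs (0.952%), against 37 (17.6%) at an unadjusted p under 0.05. The called ones were let-7b*, the passenger strand of let-7b (limma adjusted p = 0.00154), and miR-3544 (adjusted p = 0.00205), both near the floor and both detected mainly on slide 3. let-7b* was not detected in ANE at 1 h (at 34 d 3.43 and 3.66, at least 2.03-fold higher) nor in PLA at 34 d (at 1 h 4.70 and 3.95, at least 2.73-fold higher). In MTX it was at 4.24 and 5.02 at 1 h and at the floor and 2.79 at 34 d, and in MS only 1 array, at 3.27 at 1 h, was above the floor. It was detected on 5 of 8 arrays at 1 h and on 4 of 8 at 34 d, and on 7, 2 and 2 of the 8 arrays of slides 3, 1 and 2. None of the 138 miRNAs with a signal on every array passed this test. The next in order of p were miR-298 (adjusted p = 0.0708), miR-223 (0.176) and miR-1* (0.214).

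The change in ANE differed from the mean change of the other 3 arms for 3 of 210 miRNAs (1.43%), against 28 (13.3%) at an unadjusted p under 0.05. let-7b* and miR-3544 were again among them, with differences of 2.40 (SE 0.32, limma adjusted p = 0.000691) and 1.85 (SE 0.28, adjusted p = 0.00144). These differences depend on the floor, since miR-3544 was not detected in ANE at either time. In 7 of the 12 groups of miR-3544 and in 6 of those of let-7b* both arrays were at the floor and add nothing to the residual spread, which makes these SE and p-values too small. The third was miR-223, the myeloid miRNA, which was detected on every array. In ANE miR-223 was at 13.31 and 13.67 at 1 h and at 12.74 and 12.55 at 34 d, so both early arrays lay above both late ones. In MS it was at 12.71 and 12.45 at 1 h and at 13.57 and 13.08 at 34 d, the other way round. In MTX and PLA the times overlapped, with changes of 0.38 and 0.10. Its change in ANE was -0.84 against a mean of 0.41 in the other arms, a difference of -1.25 (SE 0.29, limma adjusted p = 0.0479). The 2 groups with the highest means, ANE at 1 h and MS at 34 d, were both on slide 1. In the authors' log2 table and with normexp this test called 0 miRNAs, against 25 and 5 at an unadjusted p under 0.05. When only the 138 miRNAs detected on all 16 arrays entered the fit it called 0 too, against 17 at an unadjusted p under 0.05. The call of miR-223 was lost in 16 of the 20 fits that left out 1 array and with log2 summed intensity as a covariate, whereas those of let-7b* and miR-3544 held in all 20. The differences of the red cell miRNAs were as large, 2.18 (SE 1.09) for miR-451 and 2.19 (SE 1.06) for miR-144*, but each had a limma adjusted p of 0.303.

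The pooled change was set against that of healthy animals over the same times. The arthritic change differed from the healthy change for 0 of 210 miRNAs (0%), against 7 (3.33%) at an unadjusted p under 0.05. With 2 healthy arrays per time the SE of this difference was large, for instance 0.69 for miR-484, which had the values 0.43 in the arthritic arms and -1.32 in the healthy animals (limma adjusted p = 0.969). The smallest p belonged to let-7b*, with -0.78 in the arms and -1.90 in the healthy animals, a difference of 1.12 (SE 0.31, adjusted p = 0.523). In the healthy animals alone, 3 miRNAs (1.43%) were called between the times, miR-3544, let-7b* and miR-298, all lower at 34 d, and 15 (7.14%) had an unadjusted p under 0.05. The 34 d means of the 3 were at or near the floor (2.53, 2.53 and 2.56), and the times lay on slides 3 and 2. Groups with both arrays at the floor make these p-values too small, as in the ANE contrast. The 5 miRNAs that were higher at 34 d in all 4 arms were each lower in the healthy animals. Their healthy values ran from -0.29 for miR-106b to -0.04 for miR-27b, and none of these differences passed the test. Signs were also compared over the 138 miRNAs detected on every array of the 4 arms. The healthy change shared the sign of ANE for 20 (14.5%) and of PLA for 34 (24.6%), against 100 for MS and 99 for MTX. Most miRNAs thus did not share the healthy sign in ANE or in PLA. The opposite healthy sign therefore does not set these 5 miRNAs apart.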

How the data were processed

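PBMC were separated on a density gradient, and total RNA, extracted in 1 batch per the labels, was hybridised with Cy3 to one-colour Agilent rat miRNA arrays. The deposited scanner tables hold the linear intensity of each miRNA (total gene signal) and its detection call, made by the authors with Agilent Feature Extraction 10.7.3.1 per the file headers. The authors' own table holds deposited log2 values whose scaling is not stated here, with column medians from 2.90 to 2.92. It served as an alternative.

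Each array was divided by its 75th percentile over the 132 miRNAs detected on all 24 arrays and brought back to the common scale. Values of miRNAs that were not detected, and lower values, were set before log2 to a floor of 5.76, the median over arrays of the lowest detected value. The 210 miRNAs detected on at least 3 of the 24 arrays were tested by moderated linear models (limma 3.58.1 under R 4.3.3) with arm as a block, 11 residual degrees of freedom and Benjamini-Hochberg adjustment over the 210 at 0.05. Differences between arms, and from healthy animals, were tested in a fit of 12 group means (12 residual degrees of freedom). "At least" folds compare the bright group's mean with a bound for each array of the dim group. The bound is the highest of the lowest signal detected there, the listed value of the miRNA and the floor. Permutation tests used scipy 1.17.1. No spot was saturated. With 2 arrays per group the number of arrays limits the precision. On simulated data with the pooled design, 72.2% of planted 2-fold changes and 95.2% of planted 4-fold changes were recovered. With the contrast of ANE against the other arms it was 33% and 67.2%. Per simulation 1.45 and 1.2 miRNAs without a planted change were called. The simulated noise was normal and independent between miRNAs, with no floor and no slide effect. These shares therefore do not carry over to miRNAs at the floor or to differences between slides. Each size was planted 400 times over 20 simulations of 210 miRNAs, so many miRNAs changed at once. This loosens the Benjamini-Hochberg adjustment, and the shares do not carry over to data in which few miRNAs change.

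Text names the miRNAs with one direction in all 4 arms, those at an unadjusted p under 0.05 in the pooled test, those called between arms, and members of lists. Members and lists were chosen with earlier results of these data known. One description line of the healthy arrays at 34 d gives 1 h; the title was used. The alternatives were scaling, floor, detection filter, block, slide, arm and array left out, array weights and brightness.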

Additional observations from a re-analysis of the deposited data

Results flagged for a closer look

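Among the 44 groups of 8 arrays examined, formed by time for each named miRNA and for brightness, 10 had an array far from the others relative to the range of the group. No chance rate is set beside this count, because a single detected value is flagged readily where the other arrays are tied at the floor. miR-3544 at 34 d, with every array at the floor, could not be flagged. In 3 of the 10 it was the lowest array at 1 h, replicate 1 of MS, the brightest array at that time. It was at 8.86 for miR-30c, with the next array at 9.45, at 4.75 for miR-3593-3p, next 5.27, and at 7.68 for miR-27b, next 8.20. Each is a miRNA with one direction in all 4 arms. The other 7 were the highest arrays at 34 d of miRNAs for which 4 to 7 of the 8 arrays there were at the floor. ANE replicate 2 was highest for miR-298 at 2.76, for miR-3549 at 4.75 and for miR-582* at 4.37. MTX replicate 2 was highest for miR-328a* at 3.50 and for miR-370 at 3.65. MS replicate 2 was highest for miR-203 at 3.12 and PLA replicate 1 for miR-483* at 4.93.

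The change over time differed between the 4 arms for let-7b* (F = 25.9) and miR-3544 (F = 21.8). The change in ANE differed from that of the other 3 arms by 2.40 for let-7b* and by 1.85 for miR-3544, both computed against undetected groups set at the floor, and by -1.25 for miR-223. ANE is the only arm with no array on slide 3, and slide and arm cannot be told apart in these differences.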

How the results depend on the processing

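The pooled test called 0 of 210 miRNAs and called 1 without scaling, with median scaling or with a halved floor (miR-3544 each time), 4 with 12 group means, 6 with 8 group means, 1 with slide in place of arm (miR-122) and 6 without ANE. It called 0 to 2 with 1 array left out: miR-3544 without any of the 4 ANE arrays, miR-3549 too without ANE replicate 2 at 34 d, and miR-34b without PLA replicate 2 at 34 d. Of these calls those with one direction in all arms numbered 1 with either set of group means (miR-34b), 6 without ANE and 0 to 1 with 1 array left out. With a replicate block the pooled test called 0, the F test 2, the ANE contrast 2 (miR-223 lost) and the healthy contrast 0. The replicate numbers do not pair animals.

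The 8 miRNAs with one direction became 13 without scaling, 15 with the percentile over all miRNAs, 4 with median scaling, 15 in the authors' table, 3 with normexp, 34 with brightness as a covariate (chosen after seeing the data) and 6 to 12 with 1 array left out. Over 3 arms they were 30 without MS, 24 without MTX, 28 without ANE and 26 without PLA.

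The F test (2 calls) called 1 without scaling or with quantile normalization, 0 with the percentile over all miRNAs, the authors' table, normexp or only miRNAs detected on all 16 arrays, 11 at the study's threshold (with brightness as a covariate it called 3), and 2 to 6 with 1 array left out (4 without ANE replicate 2, PLA replicate 1 or PLA replicate 2 at 1 h, 6 without MS replicate 2 at 34 d). The ANE contrast (3 calls) called 5 with the percentile over all miRNAs or at the study's threshold, 1 with quantile normalization or a doubled floor, 0 in the authors' table, with normexp or with detection on all 16, 6 with undetected values as listed, and 2 to 5 with 1 array left out (5 without MS replicate 1, ANE replicate 2 or PLA replicate 2 at 1 h). The healthy contrast (0 calls) called 1 with a doubled floor or array weights, 2 at the study's threshold and 0 with any array left out. The study's threshold stands for an unadjusted p under 0.05 and a change over 2-fold, here with detection on every array of the arms compared. For the F test the 2-fold rule was put on the largest minus the smallest arm change. Counts at this threshold are unadjusted and are not comparable with the adjusted ones. Brightness differed by 0.19, by 0.06 to 0.31 with 1 array left out, and in number of detected miRNAs by -11.9.

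Of 892 alternative values of the 21 named miRNAs, 23 had the opposite sign. With slide in place of arm, or slide 1 only, these were miR-203 (0.12), miR-483* (0.13), miR-582* (0.16), let-7b* (0.044) and miR-223 (-0.40). With slide and healthy arrays they were miR-3544 (0.39), miR-298 (0.63), miR-3549 (0.045), miR-582* (0.33), miR-3085 (0.19), let-7b* (1.54) and miR-223 (-0.80). miR-223 was also at -0.11 with array weights, -0.12 without MS, -0.046 with brightness, and from -0.00811 (without MS replicate 1 at 34 d) to 0.21 with 1 array left out. miR-3593-3p was at 0.044 with the percentile over all miRNAs and miR-27b at -0.0035 with quantile normalization. The causes were not tested. Signals near background limit the miRNAs at the floor.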

Other observations

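The spread between the 2 arrays of a group was of the size of the arm changes. Over the 138 miRNAs detected on all 16 arrays the median absolute change was 0.44 in MS, where the 2 arrays differed by a median of 0.59 at 1 h and 0.48 at 34 d. In ANE the median absolute change was 0.27 and the arrays differed by 0.26 at both times. Both arrays at 34 d lay above both at 1 h for 56 of the 138 miRNAs in MS and below for 0. In MTX these counts were 11 above and 27 below, in ANE 24 and 45, and in PLA 25 and 34. In the healthy animals they were 39 and 28.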
